A study of Mus musculus with 9 samples.

Results

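The genes described here carry the interleukin-6 (IL-6) signal into liver cells: the receptor chains Il6ra, Il6st, Osmr and Lifr, the kinases Jak1 and Jak2, the transcription factor Stat3, its feedback inhibitor Socs3, the cytokine Il6 itself and Il1r1. Il1r1 encodes the signalling receptor for IL-1, a different cytokine family that acts beside IL-6 in the acute phase response. The 10 genes were taken by name from a table of 21470 genes, and all 10 are in it. Of these, 9 reached at least 1 FPKM in at least 3 libraries and were tested; Il6 did not. FPKM are fragments per unit of transcript length and of library size, so levels of different genes can be compared.

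RNA from mouse liver made up 9 libraries, in 3 groups of 3. The groups were mice with a sham operation, mice with a ligated bile duct (BDL), which stops bile flow and scars the liver, and ligated mice given ligustilide (BDL+LIG), a phthalide of Angelica and Ligusticum roots. The design text gives a ligustilide dose of 10 mg/kg, while their titles have 20, and the dose is not settled here. Strain, age, sex, time after surgery and what the sham and BDL mice were given in place of ligustilide were not given in the sources used here. No label says that each library is a separate mouse, so the spread behind each p-value is that of these libraries and could be technical.

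IL-6 binds the receptor chain IL-6R alpha, encoded by Il6ra, and the pair engages gp130, encoded by Il6st, the signalling chain shared by the whole cytokine family. Gp130 pairs instead with the receptor encoded by Lifr for leukaemia inhibitory factor, or with that encoded by Osmr for oncostatin M. JAK kinases bound to gp130 phosphorylate STAT3, which enters the nucleus and, in hepatocytes, activates fibrinogen, serum amyloid A and other acute phase genes. STAT3 also induces Socs3, whose protein binds gp130 and JAK and ends the signal. Transcript levels say nothing about phosphorylated STAT3, which was not measured in these files.

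The libraries held 30893066 to 37381302 whole fragments, recovered from the FPKM as described under the processing. Hepatocyte markers, which check the tissue label, summed to 29955 to 57373 FPKM per library. Library sham 1 stood apart from the other sham libraries, with a correlation of 0.974 and 0.964 to them against 0.989 between them, so results that turn on it are given with and without it. Changes below are on the log2(FPKM + 1) scale, given with the SE of the limma fit and p-values adjusted over all 10142 tested genes. This scale understates the change of genes near 1 FPKM. Each group enters 2 of the 3 comparisons, which are therefore not independent.

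Transcripts of 5 of the 9 tested genes rose with ligation and 1 fell, and in the ligated mice given ligustilide 3 were higher and 1 lower than after ligation alone. In BDL against sham 29.7% of all tested genes were called, 22.9% higher and 6.76% lower. Of the 9 genes 8 were called higher and 1 lower without sham 1, and 3 higher and 1 lower under median-of-ratios scaling. Over all genes, 3729 were called higher and 899 lower of 10036 without sham 1. Under median-of-ratios scaling they were 1427 and 1488 of 9989. In BDL+LIG against BDL 11.8% were called, 9.98% higher and 1.79% lower. In BDL+LIG against sham all 9 were called, 8 higher and Lifr lower, among 52.6% of all tested genes (43.7% higher and 8.92% lower). The median change of the 9 genes was 0.64, 0.38 and 1.02 in the 3 comparisons, beside 0.16, 0.18 and 0.34 over all tested genes. Groups did not overlap for 5 genes higher and 1 lower in BDL against sham (33.7% and 11.3% of all tested genes, 45.0% together). The numbers were again 5 and 1 in BDL+LIG against BDL (40.7% and 10.5%, 51.2% together), and 7 and 1 in BDL+LIG against sham (45.7% and 9.71%, 55.4% together).

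**Figure D1:**
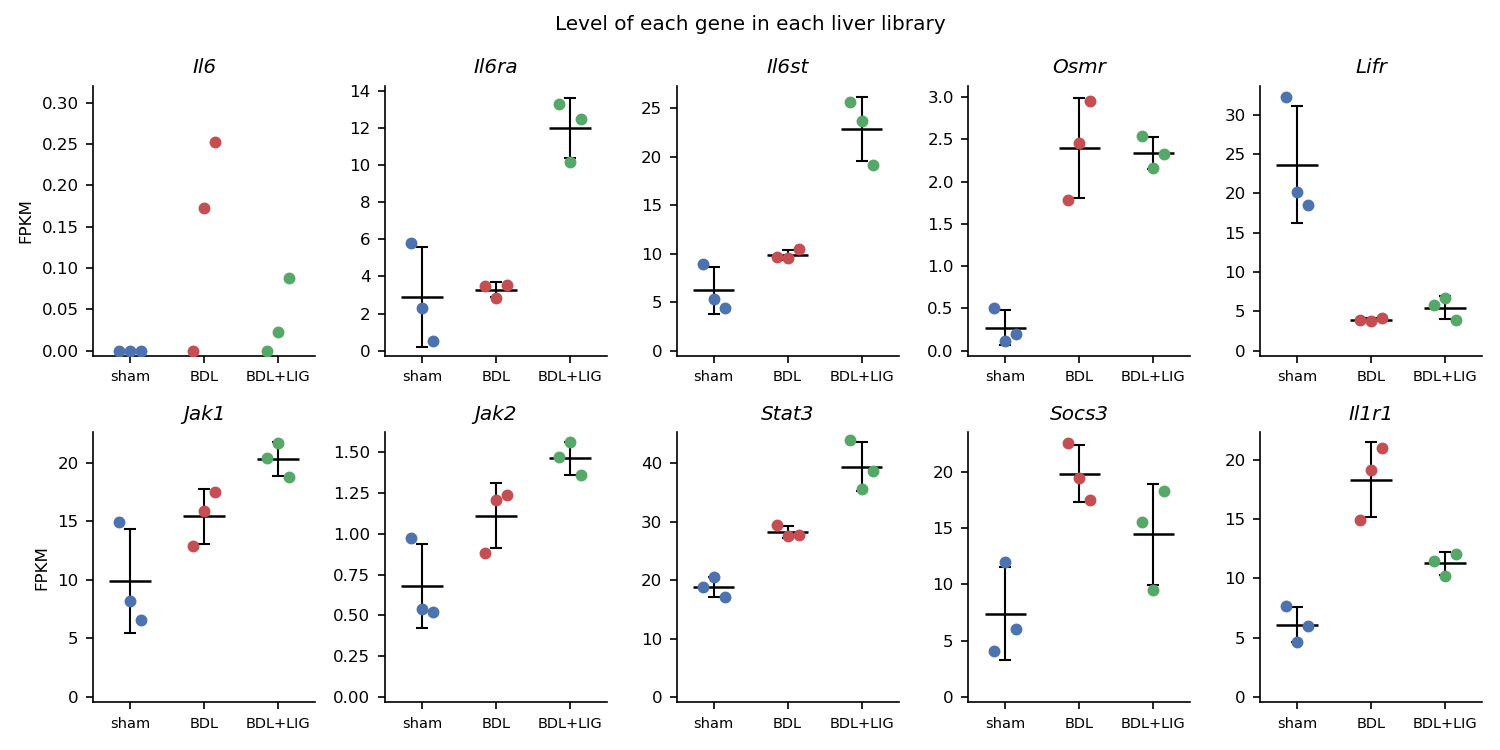
FPKM of the 10 genes in each of the 9 liver libraries, 1 panel per gene with its own linear axis from 0; points are libraries, horizontal bars the group mean and error bars the SD over 3 libraries (not drawn for Il6, which is at 0 in most libraries). Il6ra and Il6st are highest in all 3 BDL+LIG libraries, Lifr is highest in all 3 sham libraries, and Socs3 and Il1r1 are highest on average in BDL.

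Transcripts of the cytokine were near or below detection in whole liver. Il6 had 0 fragments in each sham library, 0, 8 and 10 in the BDL libraries, and 0, 1 and 4 in the BDL+LIG libraries. In FPKM these are 0, 0.172 and 0.252 for BDL and 0, 0.0222 and 0.0884 for BDL+LIG, and 0 fragments still allow up to 0.0753 FPKM in a sham library (3 fragments, counting error only). The groups overlap, since each holds a library without a fragment. An exact permutation test (two-sided, n = 3 against 3) gave p = 0.4 for each of the 3 comparisons (0.533 adjusted over 12 exact tests), and 0.1 is the smallest p this design allows.

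The other ligands of the family were also low. Clcf1, which encodes cardiotrophin-like cytokine, was at 0.776, 0.135 and 0.247 FPKM in the sham libraries, 1.57, 2.09 and 2.46 in those of BDL, and 3.31, 2.41 and 2.01 in those of BDL+LIG. All ligated libraries lie above all sham libraries. Clcf1 rose by 1.15 ± 0.20 with ligation (adjusted p = 0.00212, limma) and differed by 0.23 ± 0.20 between BDL+LIG and BDL (adjusted p = 0.456). Ctf1, cardiotrophin-1, had means of 1.78, 2.67 and 2.94 FPKM in sham, BDL and BDL+LIG, and passed only in BDL+LIG against sham (0.52 ± 0.18, adjusted p = 0.0336). Osm, Lif, Il11, Cntf, Il27 and Ebi3 were below the level for testing. Oncostatin M (Osm) did not exceed 0.198 FPKM in any library and Lif did not exceed 0.403.

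Of the receptors, Il6ra was the one with the largest ratio between the ligated groups. It was at 5.81, 2.31 and 0.543 FPKM in the sham libraries, 3.51, 2.85 and 3.53 in those of BDL, and 13.3, 10.2 and 12.5 in those of BDL+LIG. Every BDL+LIG library is above every other library, while the sham values spread about the BDL values. Il6ra was 3.64-fold higher in BDL+LIG (12.0 ± 1.62, SD, n = 3) than in BDL (3.3 ± 0.384), a change of 1.59 ± 0.41 (adjusted p = 0.035, limma). With ligation alone it differed by 0.39 ± 0.41 (adjusted p = 0.508), or by 0.92 without sham 1, which passed. The BDL+LIG to BDL difference kept its direction in 21 of 21 alternatives, at 1.35 to 1.88. It missed the threshold in 12 of them, among them the omission of any of the 6 ligated libraries (adjusted p up to 0.121) or of sham 2 (0.0502).

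Il6st, the gp130 gene, moved in the same direction in both comparisons. It was at 8.94, 5.29 and 4.43 FPKM in the sham libraries, 9.62, 9.6 and 10.5 in those of BDL, and 25.7, 23.7 and 19.2 in those of BDL+LIG. The 3 groups form 3 steps with no overlap. Il6st rose by 0.64 ± 0.21 with ligation (adjusted p = 0.0392, limma) and was higher by a further 1.12 ± 0.21 in BDL+LIG (2.31-fold, adjusted p = 0.0145). The second difference passed in 17 of 21 alternatives and missed without BDL 1, 2 or 3 or without BDL+LIG 2 (adjusted p 0.0541 to 0.0713). The first passed in 10 of 21, and missed without sham 2 or 3, without any 1 BDL library and without BDL+LIG 2, among others.

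Within a library the ratio of Il6st to Il6ra FPKM was 2.74, 3.36 and 2.97 for BDL and 1.93, 2.33 and 1.53 for BDL+LIG. The ratio was thus lower in each BDL+LIG library than in each BDL library, with the binding chain up more than the signalling chain. The exact permutation test gave the smallest p it can, 0.1 (n = 3 against 3, two-sided), which is 0.24 after adjustment over the 12 exact tests. In sham it spread from 1.54 to 8.17.

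The receptors that pair with gp130 for the other cytokines went in opposite directions with ligation. Lifr was at 32.2, 20.2 and 18.5 FPKM in the sham libraries, 3.84, 3.72 and 4.12 in those of BDL, and 5.8, 6.7 and 3.89 in those of BDL+LIG. All 6 ligated libraries lie far below all sham libraries, and the ligated groups overlap. Lifr fell by 2.29 ± 0.22 on the log2 scale with ligation (adjusted p = 4.19e-05, limma), and the BDL mean was 0.165 of the sham mean. The 0.38 ± 0.22 between BDL+LIG and BDL did not pass (adjusted p = 0.257).

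Osmr was at 0.502, 0.114 and 0.195 FPKM in the sham libraries, 1.78, 2.46 and 2.95 in those of BDL, and 2.54, 2.16 and 2.32 in those of BDL+LIG. It was low in sham and raised in every ligated library, to overlapping levels in both ligated groups. The rise with ligation was 1.42 ± 0.16 (8.87-fold on the means, adjusted p = 0.000153, limma), and BDL+LIG differed from BDL by -0.01 ± 0.16 (adjusted p = 0.969). The ratio of Osmr to Lifr FPKM went from 0.0106 ± 0.00496 in sham to 0.614 ± 0.133 in BDL and 0.452 ± 0.138 in BDL+LIG (SD, n = 3), with no overlap between sham and either ligated group. Lifr and Osmr passed in BDL against sham in every alternative in which they were tested (21 and 20). Of the remaining receptors of the family, Il11ra1, the IL-11 receptor chain, had means of 11.6, 10.6 and 12.7 FPKM in sham, BDL and BDL+LIG and passed in no comparison, and Cntfr, Il27ra and Il31ra were too low to test.

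With all 9 libraries the 2 kinases passed in BDL+LIG against sham and in neither of the other comparisons. Jak1, the main kinase at gp130, was at 14.9, 8.17 and 6.58 FPKM in the sham libraries, 12.9, 15.9 and 17.5 in those of BDL, and 20.4, 21.7 and 18.8 in those of BDL+LIG. The BDL+LIG libraries are above all others, and sham 1 lies among the BDL values. Jak1 differed by 0.66 ± 0.24 in BDL against sham (adjusted p = 0.0602, limma) and by 0.38 ± 0.24 in BDL+LIG against BDL (adjusted p = 0.29, or 0.0496 without sham 1). It rose by 1.04 ± 0.24 in BDL+LIG against sham (adjusted p = 0.00436), and without sham 1 the difference between BDL and sham was 0.97 and passed.

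Jak2 was at 0.977, 0.542 and 0.524 FPKM in the sham libraries, 0.881, 1.21 and 1.24 in those of BDL, and 1.47, 1.56 and 1.36 in those of BDL+LIG. The BDL+LIG libraries are again the highest, by a small margin. Only BDL+LIG against sham passed (0.56 ± 0.14, adjusted p = 0.00704, limma), and it did not pass under median-of-ratios scaling, quantile normalization or removal of the trend in gene length. Without sham 1, BDL against sham also passed (0.46, adjusted p = 0.011, in place of 0.34 ± 0.14 and 0.0997).

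Stat3 rose in steps over the 3 groups. It was at 18.9, 20.6 and 17.1 FPKM in the sham libraries, 29.4, 27.6 and 27.7 in those of BDL, and 43.9, 35.6 and 38.6 in those of BDL+LIG. The 3 groups do not overlap. Stat3 was the most abundant of the 10 transcripts in BDL and in BDL+LIG, where no other member's libraries reached its own, while in sham its values overlapped those of Lifr. The rise with ligation was 0.56 ± 0.12 (1.5-fold, adjusted p = 0.00511, limma) and the further rise in BDL+LIG was 0.46 ± 0.12 (1.4-fold, adjusted p = 0.0337).

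The BDL+LIG difference of Stat3 was 0.20 under median-of-ratios scaling (adjusted p = 0.453) and 0.17 with the trend in gene length removed (0.509). Omitting any 1 of the 6 ligated libraries also took its adjusted p above 0.05 (0.0604 to 0.131). Exons of Stat3, Jak1 and Il6ra overlap in the GENCODE annotation with those of Stat5a, Raver2 and an antisense gene on the opposite strand. Whether the authors' counting used strand was not given in the sources used here, so fragments from those overlaps cannot be assigned.

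Socs3, the feedback inhibitor, rose with ligation and was not called between the ligated groups. It was at 4.13, 12.0 and 6.08 FPKM in the sham libraries, 22.5, 19.4 and 17.5 in those of BDL, and 15.5, 9.48 and 18.3 in those of BDL+LIG. All BDL libraries are above all sham libraries, and the BDL+LIG libraries reach from the upper sham to the lower BDL values. Socs3 rose by 1.41 ± 0.32 with ligation (2.67-fold, adjusted p = 0.00775, limma), and this passed in 21 of 21 alternatives. BDL+LIG differed from BDL by -0.47 ± 0.32 (0.727 of the BDL mean, adjusted p = 0.326), which passed in 0 of 21 alternatives and was -0.22 without BDL+LIG 2. Against sham it rose by 0.94 ± 0.32 (adjusted p = 0.0297), although these groups overlap, and that passed in 12 of 21. Without sham 1 the difference of Socs3 between BDL+LIG and sham was 0.64 and did not pass (adjusted p = 0.076, limma).

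Set against the transcript of its inducer, Socs3 had lower values in every BDL+LIG library than in any BDL library, in a test that cannot reach the threshold. The ratio of Socs3 to Stat3 FPKM within a library was 0.219, 0.585 and 0.356 for sham, 0.766, 0.702 and 0.634 for BDL, and 0.352, 0.266 and 0.473 for BDL+LIG. The BDL values lie above all others, and the BDL+LIG values lie within the sham range. The exact permutation test of BDL+LIG against BDL gave p = 0.1, the smallest possible with 3 against 3 (two-sided, 0.24 adjusted over the 12 exact tests), and BDL+LIG against sham gave 0.9 (0.982 adjusted). A ratio within a library does not depend on the scaling factor of that library, but it can follow transcript length. Socs3 is in the middle class of length and Stat3 in the long one. Median differences of BDL+LIG against BDL in these classes were 0.19 and 0.33, and the part of length in the ratio was not tested.

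Stretches upstream of Socs3 and of the receptor genes that were higher in BDL+LIG are shown to compare them for STAT binding letters. They come from RefSeq on build GRCm38.p6, an earlier build than that of the FPKM table, and are read 5′ to 3′ on the gene's strand, and positions count back from the RefSeq start of the gene. Capitals mark TTCNNNGAA, the palindrome that STAT proteins bind. For Socs3 the bases from 250 to 101 before the start are shown (chr11:117969467-117969616, minus strand), and for Il6ra (chr3:89913197-89913346, minus strand) and Il6st (chr13:112463920-112464069, plus strand) the 150 before it. The shown stretches thus differ in position, while the counts below use the same 250 bases for every gene. The last bases of the window lie in a transcript for Il6ra and Il6st and not for Socs3.

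Socs3: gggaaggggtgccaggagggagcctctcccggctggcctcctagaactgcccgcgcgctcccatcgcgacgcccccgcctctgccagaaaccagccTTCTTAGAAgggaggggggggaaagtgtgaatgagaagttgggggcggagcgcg

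Il6ra: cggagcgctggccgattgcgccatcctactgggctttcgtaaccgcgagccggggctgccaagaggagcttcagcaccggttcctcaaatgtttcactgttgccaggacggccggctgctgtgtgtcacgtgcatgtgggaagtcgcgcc

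Il6st: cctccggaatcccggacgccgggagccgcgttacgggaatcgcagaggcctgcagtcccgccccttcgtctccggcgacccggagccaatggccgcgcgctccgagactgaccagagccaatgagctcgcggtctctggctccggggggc

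Socs3 holds TTCTTAGAA at positions -154 to -146. The motif, which reads the same on both strands, was in the 250 bases before the start of 1 of the 10 genes and of 7.02% of 32851 RefSeq promoters. The letters CTGGGAA on either strand, a type II IL-6 response element, were in 0 of the 10 and in 9.1% of all. A match of letters is a description of these windows and not a measured site.

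**Figure D2:**
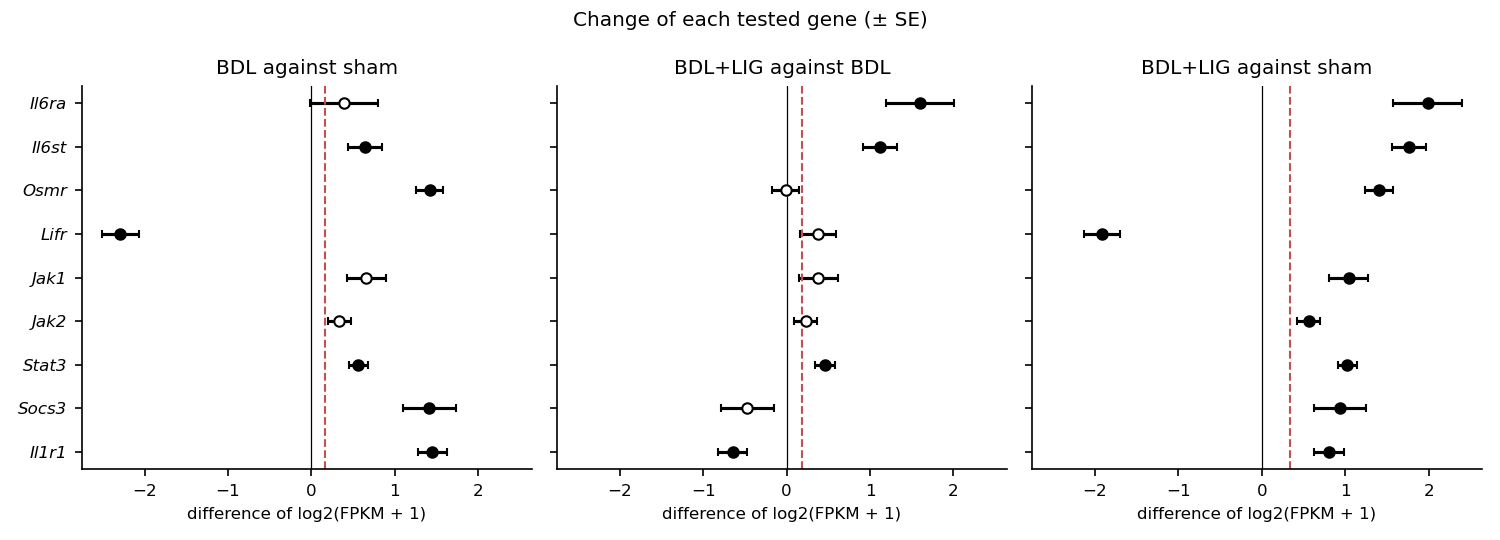
Difference of log2(FPKM + 1) with its standard error for the 9 tested genes in the 3 comparisons; filled points passed an adjusted p of 0.05, open points did not, and the dashed lines are the medians over all 10142 tested genes. Lifr is the only gene below 0 against sham; Il1r1, Socs3 and Osmr (-0.01) are below 0 in BDL+LIG against BDL, where only Il1r1 passed among them.

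Il1r1, the receptor for IL-1, was the only one of the 9 called lower in BDL+LIG than in BDL. It was at 7.65, 4.68 and 6.01 FPKM in the sham libraries, 14.9, 19.1 and 21.0 in those of BDL, and 11.5, 10.2 and 12.1 in those of BDL+LIG. The BDL+LIG libraries lie between the other groups, with no overlap with either. Il1r1 rose by 1.45 ± 0.18 with ligation (3.0-fold, adjusted p = 0.000203, limma), which passed in every alternative. In BDL+LIG it was 0.613 of the BDL mean, a difference of -0.65 ± 0.18 (adjusted p = 0.0417). That difference ranged from -0.98 to -0.52 over the alternatives and missed the threshold in 10 of 21, including the omission of any 1 ligated library (adjusted p 0.0773 to 0.142).

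**Figure D3:**
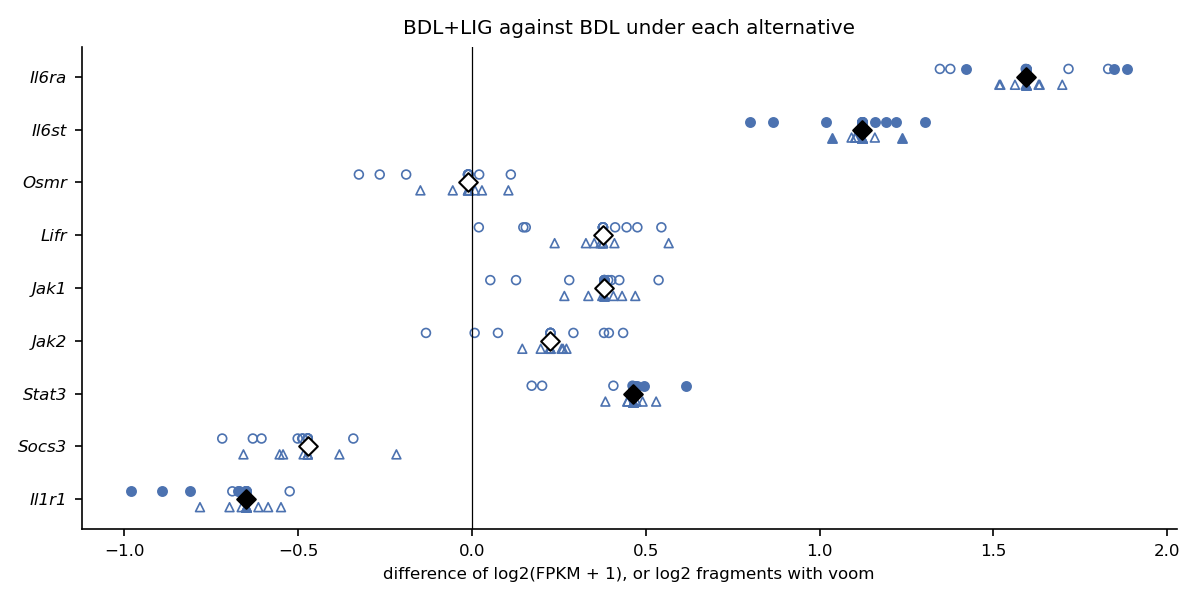
Difference of BDL+LIG against BDL on the log2(FPKM + 1) scale for each tested gene in the main analysis (diamonds), with other processing (circles) and with 1 library left out (triangles); filled symbols have an adjusted p under 0.05. Il6ra, Il6st and Stat3 stay above 0 and Il1r1 and Socs3 below 0 throughout, while the number of filled symbols differs between genes.

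Other genes of the pathway are given by role. All 4 genes of receptor shedding, the cleavage that frees the IL-6 receptor from the membrane, rose with ligation: the proteases Adam10 (1.09 ± 0.17, adjusted p = 0.00116, limma) and Adam17 (0.68 ± 0.14, adjusted p = 0.00399), and the trafficking factors Rhbdf1 and Rhbdf2 of Adam17. Over all tested genes 22.9% were called higher with ligation. In BDL+LIG against BDL 0 of the 4 passed with limma or with voom, 1 had an unadjusted p under 0.05 (Rhbdf2, adjusted p = 0.0786), and their median was 0.40. Of the other JAK and STAT genes, Jak3, a kinase of blood cells, rose with ligation (0.78 ± 0.12, adjusted p = 0.00105). Stat5b, which carries the growth hormone signal, was higher in BDL+LIG than in BDL (0.56 ± 0.12, adjusted p = 0.0231).

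Of 13 tested inhibitors of JAK-STAT signalling, 4 rose with ligation and 0 fell: the phosphatases Ptpn1, Ptpn6 and Ptpn11, and Cish. Their median was 0.16, that of all tested genes, and 22.9% of all tested genes were called higher there. With ligustilide 2 were higher than in BDL and 0 lower (3 and 0 at an unadjusted p under 0.05, 2 and 0 with voom), beside 9.98% higher over all tested genes. Socs7, of the same family as Socs3, was at 1.39, 1.06 and 0.961 FPKM in the sham libraries, 0.829, 0.925 and 1.02 in those of BDL, and 1.8, 1.96 and 1.9 in those of BDL+LIG. Each BDL+LIG library is above every other library (0.59 ± 0.12, adjusted p = 0.02, limma). Ptpn11, the phosphatase SHP2 that binds gp130, had means of 8.15 FPKM in BDL and 13.4 in BDL+LIG (0.65 ± 0.14, adjusted p = 0.0219).

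Of 12 tested STAT3 targets outside the acute phase, 8 rose and 1 fell with ligation, beside 22.9% and 6.76% of all tested genes. Their median was 0.92, beside 0.16 over all tested genes. Timp1, a metalloproteinase inhibitor, went from a mean of 0.148 to 8.89 FPKM (3.10 ± 0.25), Fos, an immediate early factor, rose by 2.19 ± 0.22, and Bcl2l1, a survival factor, by 0.94 ± 0.12. Pim1, a kinase, fell from 14.1 to 6.03 FPKM (a difference of -1.09 ± 0.15). Between the ligated groups 1 of the 12 rose, the IL-4 receptor chain Il4ra (0.48 ± 0.14, adjusted p = 0.0468, limma), 0 fell (3 and 1 at an unadjusted p under 0.05, 1 and 0 with voom), and the median was 0.15. Over all tested genes 9.98% rose and 1.79% fell there, with a median of 0.18. Timp1 (-0.09), Fos (0.05) and Bcl2l1 (0.01) did not pass between the ligated groups, and Bcl3, an NF-kB cofactor, was at -0.54 (adjusted p = 0.0625). The cyclin gene Ccnd1 had the largest difference of the list, 0.89 (adjusted p = 0.0684, limma), with all BDL+LIG libraries above all BDL libraries. It was at 16.8, 19.4 and 19.8 FPKM in BDL and 22.6, 62.3 and 31.2 in BDL+LIG, so BDL+LIG 2 adds much to the difference. Pim1 was at 0.43 (adjusted p = 0.0848, limma). Without overlap 5 of the 12 were higher and 1 lower (40.7% and 10.5% of all tested genes).

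The IL-1 pathway around Il1r1 had 10 of 19 tested genes up and 1 down with ligation, beside 22.9% and 6.76% of all tested genes. Il1rn, the receptor antagonist, was at 1.96, 1.42 and 1.91 FPKM in sham and 12.9, 13.8 and 12.1 in BDL, a rise of 2.34 ± 0.22 (adjusted p = 3.44e-05, limma). Il1b, a ligand of Il1r1, rose by 1.05 ± 0.19, and Nfkbia, the inhibitor of NF-kB, by 1.05 ± 0.12. Il1rap, the accessory chain that Il1r1 needs to signal, fell from 9.3 to 4.82 FPKM (a difference of -0.78 ± 0.19, adjusted p = 0.011). Of the 19, 1 passed in BDL+LIG against BDL, the inhibitor Tollip (0.49 ± 0.12, adjusted p = 0.028, limma). At an unadjusted p under 0.05 there were 6 higher and 0 lower, and with voom 3 and 0. Over all 10139 genes it could test, voom called 1320 higher and 164 lower, while limma called 9.98% and 1.79% of all tested genes. Without overlap 9 of the 19 were higher and 0 lower (40.7% and 10.5% of all tested genes). Il1rn was at 12.3, 8.7 and 18.1 FPKM, on both sides of the BDL values.

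The acute phase genes are the main hepatocyte output of this pathway, and many had lower values in BDL+LIG, where Il6ra, Il6st and Stat3 were higher. Of 30 tested positive acute phase genes, 28 rose with ligation and 0 fell (22.9% and 6.76% of all tested genes), with a median of 1.67. Between the ligated groups 0 rose and 6 fell with limma (0 and 14 at an unadjusted p under 0.05, 0 and 9 with voom), beside 9.98% and 1.79% of all tested genes. The median was -0.64, beside 0.18 over all tested genes. In 21 of the 30 all BDL+LIG libraries were below all BDL libraries (10.5% of all tested genes). Against sham, 20 of the 30 were still higher in BDL+LIG and 0 lower (43.7% and 8.92% of all tested genes), with a median of 1.15. Under median-of-ratios scaling that became 10, of which 8 were higher and 2 lower. Over all genes 2059 were then called higher and 2797 lower of 9989, in place of 4430 and 905.

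The 6 that fell were Saa2, Saa4, Orm1, Apcs, Fgl1 and Lrg1. Saa2, a serum amyloid A, was at 88.4, 271 and 303 FPKM in the sham libraries, 4720, 6190 and 7100 in those of BDL, and 2110, 444 and 1770 in those of BDL+LIG. Its BDL+LIG libraries lie between the other groups (-2.32 ± 0.59 against BDL, adjusted p = 0.0337, limma). Saa1 is a close copy of Saa2 with which it can share reads, so the split between them is uncertain; its difference of -1.91 ± 0.55 had an adjusted p of 0.05004. Orm1, an orosomucoid, had means of 7760 FPKM in BDL and 2940 in BDL+LIG (-1.42 ± 0.24, adjusted p = 0.0131), and it too can share reads with near copies.

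Apcs, serum amyloid P, went from a mean of 525 to 199 FPKM (-1.43 ± 0.24, adjusted p = 0.0128, limma), and Lrg1, a secreted leucine-rich glycoprotein, from 1940 to 1140 (-0.79 ± 0.23, adjusted p = 0.0479). Other hepatocyte genes of the response had lower values without passing. Hp, haptoglobin, was at 16600, 17100 and 18100 FPKM in the BDL libraries and 12100, 7020 and 9510 in those of BDL+LIG (-0.89 ± 0.27, adjusted p = 0.0548). The groups do not overlap for Hp. Lcn2, lipocalin-2, differed by -1.44 ± 0.51 (adjusted p = 0.0853), the fibrinogen chain Fgb by -0.50 ± 0.26 (0.214), Serpina3n by -0.63 ± 0.36 (0.251) and the metalloreductase Steap4 by -0.40 ± 0.22 (0.246). Serpina3m was the one gene of the 30 with all BDL+LIG libraries above all BDL libraries.

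**Figure D4:**
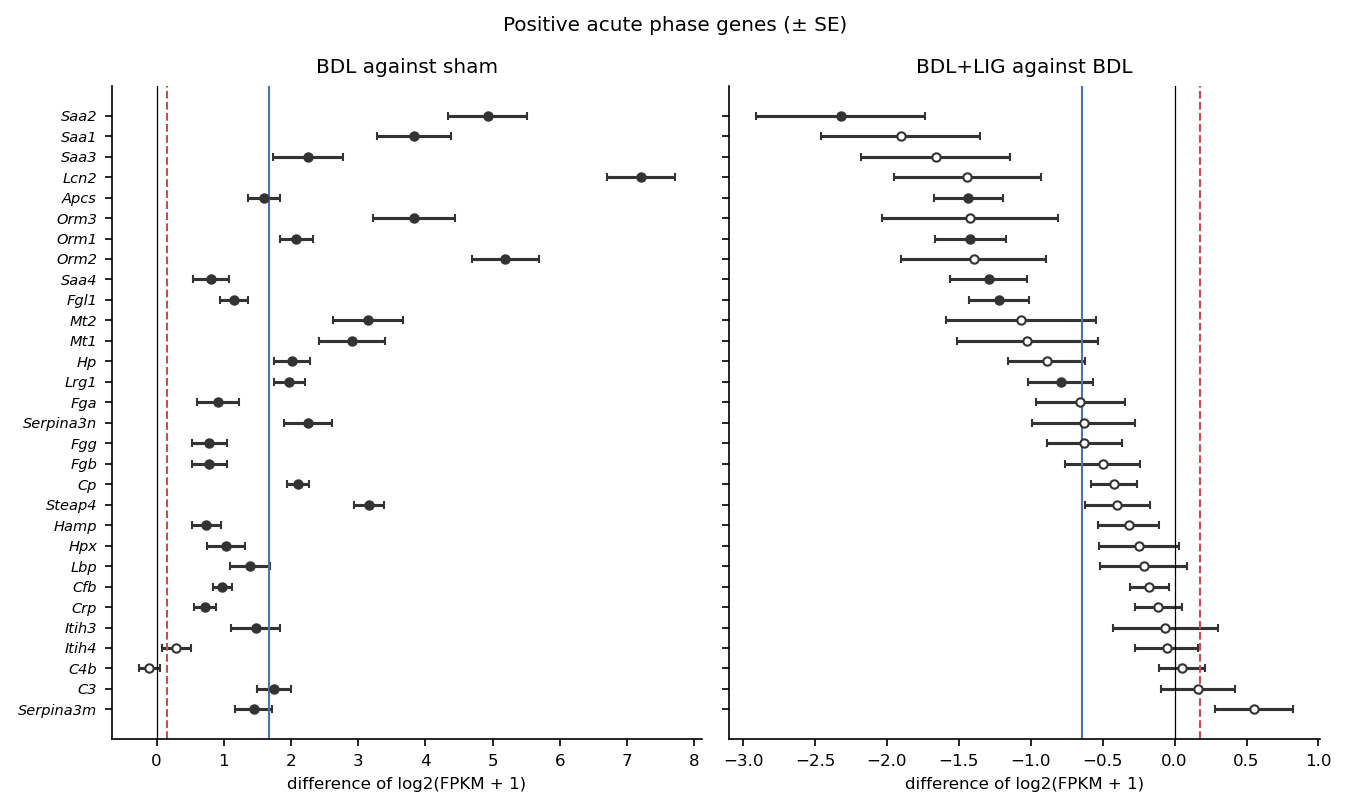
Difference of log2(FPKM + 1) for the 30 tested positive acute phase genes in BDL against sham and in BDL+LIG against BDL; filled points passed an adjusted p of 0.05, the blue line is the median of the list and the red dashed line the median of all tested genes. The list median is 1.67 in the first panel and -0.64 in the second.

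The count of 6 rests on all 3 BDL libraries: it was 1 without BDL 1, 0 without BDL 2 and 0 without BDL 3. It was 3 without BDL+LIG 2, 9 without sham 3 and 12 without sham 1. Lower calls over all tested genes moved the same way, from 182 to 68 without BDL+LIG 2, 283 without sham 3 and 517 without sham 1. Over all tested genes the same omissions of BDL 1, 2 and 3 left 25, 0 and 56 higher calls and 15, 0 and 12 lower ones in that comparison. The calls of Il6ra, Il6st, Stat3 and Il1r1 were lost in the same fits.

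Socs3 and the acute phase genes had the same lowest library among those of BDL+LIG. BDL+LIG 2 had the lowest Socs3, 9.48 FPKM, and the lowest value of the group in 29 of the 30 acute phase genes, whereas 19.5% of all tested genes were lowest there. Their highest libraries differed. Socs3 was highest in BDL+LIG 3, where 7 of the 30 were highest (25.4% of all tested genes). In BDL+LIG 1 22 of the 30 were highest (21.4% of all tested genes). The summed acute phase FPKM was 66857, 43578 and 60319 in BDL+LIG 1, 2 and 3, against 89564 to 97938 in BDL and 26108 to 35541 in sham. In sham, library 2 had the highest Socs3 and the highest value in 19 of the 30 (15.5% of all tested genes). In BDL they did not go together, as Socs3 was highest in BDL 1, where 22 of the 30 were lowest, as were 57.0% of all tested genes. Il6ra and Stat3 were also lowest in BDL+LIG 2 within that group, but stayed above every BDL library there.

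Some of these genes carry the motif letters, and the stretches around them are shown (RefSeq, GRCm38.p6). Capitals mark TTCNNNGAA, or CTGGGAA on either strand, and the 2 motifs overlap in none of these. Among the 10 members 1 held the first motif and 0 the second, near the shares of 7.02% and 9.1% over all promoters. The stretches shown are part of Fgb (chr3:83049939-83050038, minus strand), Steap4 (chr5:7960327-7960376, plus strand) and Lrg1 (chr17:56122022-56122071, minus strand). The last bases of the window lie in a transcript for each of these genes.

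Fgb: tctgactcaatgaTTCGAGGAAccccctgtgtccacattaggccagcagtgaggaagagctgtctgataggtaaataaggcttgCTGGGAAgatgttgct

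Steap4: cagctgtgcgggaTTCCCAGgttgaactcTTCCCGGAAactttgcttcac

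Lrg1: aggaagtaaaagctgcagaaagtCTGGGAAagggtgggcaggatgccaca

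TTCNNNGAA was in 6 of the 23 positive acute phase genes with a RefSeq promoter (Apcs, Fga, Fgb, Hamp, Itih4 and Steap4) and CTGGGAA in 5 (Apcs, Fgb, Fgg, Lrg1 and Steap4). Apcs and Lrg1 are among the genes that fell in BDL+LIG, and the others are not. The shares over all promoters are those given above for the same 250 bases.

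Of 7 tested factors that act with STAT3 on acute phase promoters, Cebpd, an acute phase C/EBP factor, rose by 2.12 ± 0.30 (adjusted p = 0.000553, limma) and Cebpa (199 to 89.7 FPKM, -1.10 ± 0.19) and Creb3l3 (120 to 85.4 FPKM, -0.48 ± 0.12) fell with ligation. Between the ligated groups Creb3l3, a liver factor processed under endoplasmic reticulum stress, rose by 0.44 ± 0.12 (adjusted p = 0.0479). Cebpd differed by -0.39 ± 0.30 (adjusted p = 0.392). Of 7 negative acute phase genes, made less by the liver in inflammation, Ttr and Serpina6 fell and Trf rose with ligation, and 0 passed in BDL+LIG against BDL with limma, at an unadjusted p under 0.05 or, for the 6 it could test, with voom. Their median there was 0.12.

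Whole liver mixes cell types, and fewer cells of a type and less RNA per cell cannot be told apart in bulk samples. All 6 endothelial markers rose in BDL+LIG against BDL, where 9.98% of all tested genes were called higher. Their summed level was 45.6 to 65.5 FPKM, against 26.5 to 29 in BDL and 19.6 to 23.1 in sham. The 8 macrophage markers summed to 411 to 901 FPKM in BDL+LIG, 315 to 459 in BDL and 78.6 to 154 in sham, and 1 of 8 rose in BDL+LIG against BDL (Adgre1) after all 8 had risen with ligation. Stellate cell markers summed to 34.3 to 54.3 FPKM in BDL+LIG and 21.4 to 30.7 in BDL, with 3 of 7 higher, where the sham libraries held 4.33 to 13.7. Receptors and Stat3 are expressed in these cells as well as in hepatocytes, and the part of these markers in the differences of Il6ra, Il6st and Stat3 was not tested.

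Of 3 tested neutrophil markers 1 fell in BDL+LIG, S100a9, and the 6 of the list summed to 14.6 to 38.6 FPKM there, 40.5 to 45.5 in BDL and 4.16 to 5.61 in sham. S100a8 and S100a9 make up most of that sum, while Csf3r (mean 2.49 against 1.86 FPKM) and Cxcr2 (0.716 against 0.488, not tested) had higher means in BDL+LIG. Cholangiocyte markers, all 6 of which rose with ligation, passed in 0 of 6 with limma or voom in BDL+LIG against BDL, with 1 at an unadjusted p under 0.05 (Sox9, 0.40). Their sum of 214 to 456 FPKM against 406 to 602, with 19.9 to 36 in sham, is mostly Spp1, and 4 of the 6 differences were above 0, with a median of 0.16. The 6 hepatocyte markers also passed in 0 of 6, with 0 at an unadjusted p under 0.05 and sums of 36280 to 45007 against 29955 to 36876 FPKM. Of the 7 T, NK and B cell markers 1 was tested and did not pass, and no marker of these lists was at 0 in every library of a group. Their part in the lower acute phase and Il1r1 values was not tested.

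The genes whose levels most resembled Socs3 over the 9 libraries, among 5820 tested genes with a mean of at least 5 FPKM in a group, were Plscr2 (Pearson r = 0.99), the chemokine gene Cxcl1 (0.977), the sulfotransferase gene Sult1d1 (0.965), the metallothionein gene Mt2 (0.958) and the orosomucoid gene Orm3 (0.956). Cxcl1 was at 8.01, 48.2 and 8.61 FPKM in the sham libraries, 119, 111 and 108 in those of BDL, and 82.4, 42.6 and 112 in those of BDL+LIG. Like Socs3, it was highest of the sham libraries in sham 2 and lowest of its group in BDL+LIG 2. Among those most like Stat3 were H1f2 (0.987), Wbp1l (0.984), Fkbp5 (0.982) and Crybg1 (0.98). Fkbp5, a glucocorticoid-induced co-chaperone, had its group means in the same order, 9.87, 20.3 and 37.6 FPKM in sham, BDL and BDL+LIG. These correlations describe 9 libraries that share 3 groups, and no test was made of them. The genes were picked for this likeness in the same libraries. Shared high or low libraries and a shared order of means follow from that choice and are no separate result.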

How the data were processed

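The values are FPKM of liver RNA from 9 libraries, deposited by the authors as a single table of 21470 genes. Per the labels' protocols, RNA was extracted with TRIzol, measured on a NanoDrop, and libraries were prepared with the kit VAHTS Universal V6. Per the submitters' processing notes, fastp, HISAT2 2.1.0, DESeq2 and the build GRCm39 were used; the counting program, annotation and use of strand were not given in the sources used here. Groups came from the sample titles.

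A gene's FPKM are whole multiples of the value of 1 fragment, which gave whole fragments for 19442 of 19449 genes (99.96%, within 0.02 of a whole number). They served for depth and for the alternative with voom.

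The 10142 genes reaching 1 FPKM in 3 or more libraries were tested with limma 3.58.1 in R 4.3.3 on log2(FPKM + 1), all 9 libraries in 1 fit, with Benjamini-Hochberg adjustment within each comparison and a threshold of 0.05. The code was tested on simulated data. Within-library ratios and Il6 were compared by exact permutation tests. The members, gene lists and rules were chosen with earlier results of these data known. Named genes were the members, every IL-6 family ligand and receptor, up to 4 genes of each list with the smallest p in BDL against sham and in BDL+LIG against BDL, 8 set acute phase genes, and the 5 genes most like Socs3 and Stat3. Some genes this rule names are not reported here. Named outside that rule, after their values were seen, were Il1b, Il1rap, Serpina3m and the acute phase genes and markers that passed or that hold a motif. Alternatives changed the pseudocount (0.1, 0.5), the filter (none, or a mean of 5 FPKM or more), the scaling (median-of-ratios, TPM, quantile) and the fit (robust eBayes, only the 2 groups compared, a block for replicate number, voom on fragments), with each library left out in turn and, added after seeing the data, removal of a trend in gene length (loess, span 0.4). No 2 libraries of a group were near duplicates (median chi-square per gene 2.57 to 24.2). The BDL libraries were the closest, with correlations of 0.993 to 0.996, against 0.964 to 0.989 in sham and 0.983 to 0.988 in BDL+LIG. The fit of all 9 libraries shares 1 estimate of spread per gene over these groups.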

Additional observations from a re-analysis of the deposited data

How the results depend on the processing

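Of the 9 tested genes, 4 passed in BDL+LIG against BDL. This count was 2 with a pseudocount of 0.1, 2 without the filter, 2 under median-of-ratios scaling, 2 with the trend in gene length removed (added after seeing the data) and 0 to 5 with 1 library left out. Median-of-ratios scaling and removal of the length trend each left 1 higher and 1 lower, TPM left 3 higher and 0 lower, quantile normalization 2 higher and 1 lower. The 6 acute phase genes lower in BDL+LIG became 3 without the filter, 12 with the 2 groups alone and 0 to 12 with 1 library left out. Lower calls over all tested genes went from 182 to 91, 605 and 0 to 517 in these settings. The 20 acute phase genes higher than in sham became 10 called under median-of-ratios scaling. Over all genes the calls against sham went from 4430 higher and 905 lower to 2059 and 2797.

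Scaling moved all genes: the median difference of BDL+LIG against BDL was 0.18, and -0.04 under median-of-ratios scaling, 0.00 under quantile normalization and 0.33 in TPM, while calls went from 1012 higher and 182 lower to 257 and 352, 575 and 531, and 1957 and 99. For BDL against sham the calls went from 2322 and 686 to 1427 and 1488 under median-of-ratios scaling. Differences of BDL+LIG against BDL also followed gene length, with medians of -0.04, 0.19 and 0.33 in genes of short, middle and long transcripts (equal numbers of genes); Il6ra and Socs3 are in the middle class and the other 7 tested genes in the long one. The directions of Il6ra, Il6st, Stat3, Il1r1 and Socs3 in BDL+LIG against BDL were the same in every alternative.

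Signs turned in these results, and the cause was not tested. Il6ra in BDL against sham was -0.15 without sham 3 and 0.92, past the threshold, without sham 1. Osmr in BDL+LIG against BDL was 0.11 in TPM, 0.021 with voom, 0.01 without BDL 2, 0.10 without BDL 3 and 0.03 without BDL+LIG 2. Jak2 was -0.13 with the length trend removed (0.23 in the main analysis), and Fgb was 0.10 under quantile normalization (-0.50 in the main analysis). Jak2 and Osmr had no value with the mean filter, which removes them.

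Same-numbered libraries were not treated as pairs. Their deviations from the group mean correlated between -0.126 and 0.285, and in no comparison did every pair exceed 0.1. Differently numbered libraries were not compared in this way, so the check cannot settle whether equal numbers mark pairs. With the replicate number as a block 2 of the 9 genes passed in BDL+LIG against BDL in place of 4, and 742 of all genes in place of 1194. The tested genes had at least 158 fragments over the libraries of a group, whereas Il6 had 18, 5 and 0 in BDL, BDL+LIG and sham, where depth limits what can be seen.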
